A study of Mus musculus with 10 samples.

Results

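Polycomb, heterochromatin, DNA methylation, histone deacetylase, histone chaperone and B-type lamin genes were examined in livers of mice labelled as double knockouts of both macroH2A genes. The list held 44 genes, chosen by name for their roles in repressive chromatin or histone exchange, and 41 of them had a probe set that carries their symbol alone, out of 25335 probe sets with a gene symbol. Suv39h1, Suv39h2 and Ssrp1 had no such probe set and were not analysed here. Where a gene had several probe sets, the row with the highest mean over the 10 arrays was used. The samples were 5 livers of macroH2A1 macroH2A2 double knockout mice and 5 livers of wild-type mice. All mice were 2-month-old males of strain 129/S6 (taconic), fasted overnight for about 16 h. How the knockout alleles were made, and whether the deletion was limited to any tissue, is stated in none of the sources used here. The labels do not say in so many words that each sample was a separate animal, so the p-values measure the spread between these samples.

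MacroH2A is a histone variant with a large non-histone domain, found on the inactive X chromosome and on many silent regions of autosomes. The genes examined here build or read other layers of silent chromatin. Polycomb repressive complex 2 (PRC2) methylates histone H3 at the lysine that marks Polycomb targets, Polycomb repressive complex 1 (PRC1) binds that mark and ubiquitinates histone H2A, and heterochromatin protein 1 (HP1) binds a different methylated lysine of H3 that is placed by the SUV39H, SETDB1 and EHMT enzymes. Histone chaperones carry histones to DNA during and outside replication, and ATRX has been reported in human cells to bind macroH2A and limit its deposition. The comparison asks whether transcripts of this machinery differ between livers labelled double knockout and wild type.

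The values were log2 expression levels, so a difference of 1 is a doubling. Array medians lay between 6.43 and 6.46, and pairwise correlations ran from 0.989 to 0.995. The 8 hepatocyte markers averaged 13.33 to 13.36 per double knockout array and 13.34 to 13.40 per wild-type array, and all lay above the level used as a guide to background, 6.54, which is the 95th percentile of 1108 olfactory receptor probe sets. Of the 41 genes, 36 (87.8%) had a mean above that guide, against 55.6% of all probe sets tested. Bmi1, Cbx8, Chaf1a, Chaf1b and Lmnb1 lay below it. Macroh2a1 was 9.18, 9.02, 9.14, 9.15 and 9.04 in double knockout replicates 1 to 5, against 9.66, 9.61, 9.51, 9.66 and 9.56 in wild-type replicates 1 to 5. It fell by 0.49 on the log2 scale (SE 0.05, limma adjusted p = 0.00128), to 0.711-fold, and its level in double knockout livers remained well above the guide. Where the probe sets of the macroH2A genes lie relative to the deleted parts is stated in none of the sources, and a probe set outside the deleted part would not check the knockout. Macroh2a2 lay below the guide in both groups, at 6.12 ± 0.19 in double knockout and 6.32 ± 0.28 in wild-type livers (SD, n = 5 each, limma adjusted p = 0.514).

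None of the 41 listed transcripts passed the test, and none had an interval reaching a 1.5-fold change. In limma, 0 of the 41 genes were called at an adjusted p under 0.05, where 0.884% of all probe sets tested were called. At an unadjusted p under 0.05 there were 4 genes (9.76%), all lower in double knockout livers, where 15.1% of all probe sets passed in either direction and 7.6% passed with a lower mean. The groups did not overlap for 0 of the 41 genes, against 3.9% of all probe sets. The largest differences were -0.24 for Cbx2 and 0.21 for Ep400. The median difference was -0.034 over the 41 genes and -0.0030 over all probe sets, and 24 genes had lower means (58.5%), against 51.5% of all probe sets. The shares of genes past each threshold were below those of all probe sets, except for lower means at an unadjusted p under 0.05, where 4 genes made up 9.76% against 7.6%.

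The precision of the arrays sets how small a change could have been seen. The median standard error was 0.053 for the listed genes and 0.059 for all probe sets. For 32 of the 41 genes (78%) the 95% interval of the difference lay within 1.2-fold in either direction, as it did for 76.9% of all probe sets. All 41 intervals lay within 1.5-fold, where 96.9% of all probe sets did. The lowest bound was 0.768-fold, for Cbx2, and the highest was 1.35-fold, for Ep400. The 9 genes with an interval reaching beyond 1.2-fold were Cbx2, Cbx5, Cbx8, Chaf1a, Kdm6b, Hdac1, Dnmt3a, Dnmt3b and Ep400. The intervals hold for each gene singly and were not widened for the number of genes.

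**Figure D1:**
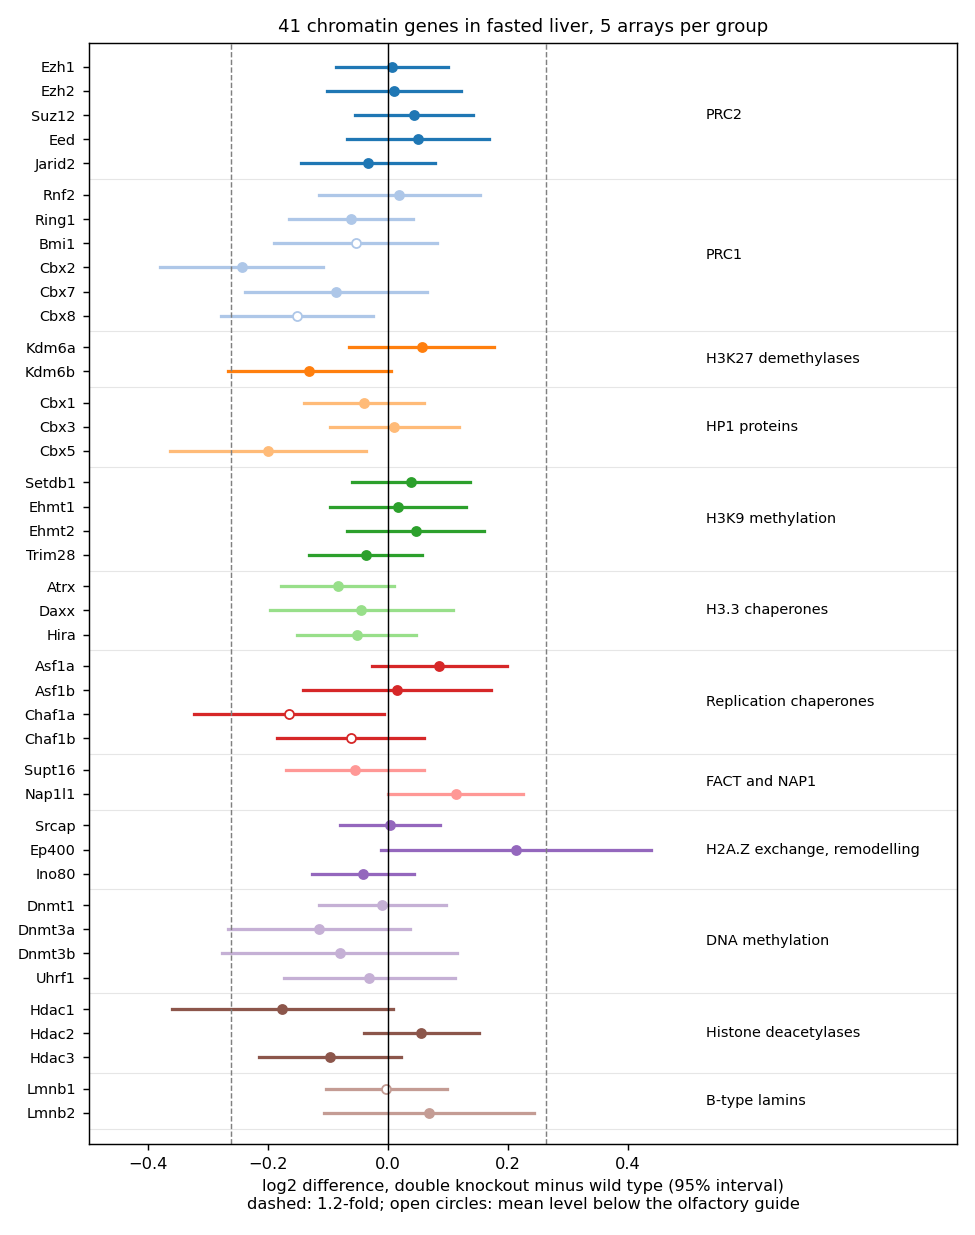
Log2 difference between double knockout and wild-type livers (x axis) for each of the 41 genes, grouped by role, with its 95% interval from limma. The dashed lines stand at 1.2-fold, open circles mark genes below the background guide, and the intervals of Cbx2, Cbx5, Cbx8 and Chaf1a are the 4 that lie wholly on the lower side of 0.

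**Figure D2:**
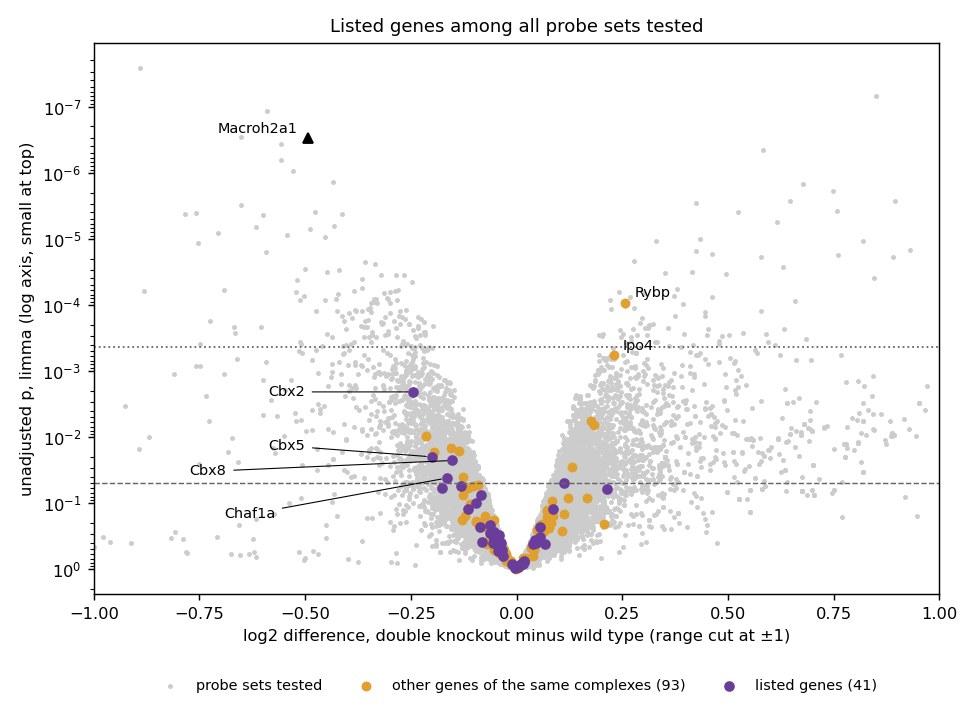
Log2 difference (x axis, double knockout minus wild type, cut at ±1) against the unadjusted limma p (log axis, small values at the top) for all probe sets tested. The 41 listed genes and 93 other genes of the same complexes or roles are in colour. The dashed line is at p of 0.05 and the dotted line at the largest p that was called after adjustment: the listed genes lie below the dotted line, and Rybp lies above it.

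PRC2 transcripts differed by less than 0.05 on the log2 scale in all 5 genes measured. Ezh2 and Ezh1, the alternative catalytic subunits, differed by 0.010 and 0.0058. Ezh2 averaged 7.93 ± 0.07 in double knockout and 7.92 ± 0.08 in wild-type livers, and Ezh1 averaged 9.09 ± 0.03 in double knockout and 9.09 ± 0.07 in wild-type livers (SD, n = 5 each). The interval for Ezh2 ran from 0.932-fold to 1.09-fold. Suz12 and Eed, the core scaffold subunits, had differences of 0.043 and 0.049, and Jarid2, an accessory subunit that helps recruit the complex, had -0.034. Suz12 had the lowest p of the 5. Its levels were 9.02, 9.13, 9.02, 9.00 and 9.00 in double knockout livers, against 9.09, 9.00, 9.00, 8.97 and 8.92 in wild-type livers, and the groups overlapped through most of their range (limma adjusted p = 0.723).

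The demethylases that remove the PRC2 mark did not share a direction. Kdm6a, which is X-linked, had a difference of 0.056. Kdm6b was 9.13, 9.22, 9.41, 9.18 and 9.27 in double knockout livers, against 9.24, 9.32, 9.42, 9.47 and 9.43 in wild-type livers, a difference of -0.13 (SE 0.06, limma adjusted p = 0.347). The groups overlapped, with double knockout replicate 3 close to wild-type replicate 3. A second Kdm6b probe set, at a mean level of 5.79 and so below the background guide, differed by 0.083 in the other direction.

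PRC1 held the gene with the lowest p of the list, Cbx2. Chromobox proteins of the Polycomb type, CBX2, CBX7 and CBX8, are the alternative subunits by which canonical PRC1 reads the PRC2 mark. Cbx2 was 8.97, 8.79, 8.91, 8.91 and 8.86 in double knockout replicates 1 to 5, against 9.23, 9.25, 9.03, 9.19 and 8.96 in wild-type replicates 1 to 5. The overlap consisted of wild-type replicate 5, which lay just under double knockout replicate 1. The difference was -0.24 (SE 0.06, 95% interval -0.38 to -0.11), with an unadjusted p of 0.0021 and a limma adjusted p = 0.0934. Without wild-type replicate 5 it was -0.29 (limma adjusted p = 0.0483), and over the 10 fits that left out 1 array the adjusted p ran from 0.0483 to 0.206.

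Cbx8 was 6.28, 6.37, 6.41, 6.34 and 6.51 in double knockout livers, against 6.43, 6.65, 6.62, 6.51 and 6.46 in wild-type livers. Its mean lay just below the background guide, and the difference was -0.15 (SE 0.06, limma adjusted p = 0.24). Cbx2 and Cbx8 are adjacent protein-coding genes on chromosome 11 in the RefSeq annotation. Cbx7, the third Polycomb chromobox gene measured, differed by -0.087 (limma adjusted p = 0.613). The ubiquitin ligase subunits Rnf2 and Ring1 differed by 0.018 and -0.062, and their partner Bmi1 by -0.054 at a level below the guide. In all, 5 of the 6 PRC1 genes had lower means, with a median difference of -0.075. Of 12 other PRC1 genes, 7 had lower means (58.3%, against 51.5% of all probe sets), with a median difference of -0.0051.

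Cbx5, which encodes HP1 alpha, was 8.71, 8.47, 8.61, 8.56 and 8.92 in double knockout livers, against 8.93, 8.87, 8.89, 8.81 and 8.77 in wild-type livers. In double knockout livers, replicates 1 to 4 lay below every wild-type array, while replicate 5 lay near the top of the wild-type range. The difference was -0.20 (SE 0.07, limma adjusted p = 0.229), and it was -0.27 (limma adjusted p = 0.0772) without double knockout replicate 5. Over the 10 fits that left out 1 array it ran from -0.27 to -0.15, with limma adjusted p from 0.0772 to 0.383. Cbx1 (HP1 beta) and Cbx3 (HP1 gamma) differed by -0.041 and 0.011. Cbx3 had 4 probe sets of its own, with differences from 0.011 to 0.075. So 3 of the 4 genes with an unadjusted p under 0.05 encode chromobox proteins, a grouping seen after the values were known. The other 3 chromobox genes measured, Cbx1, Cbx3 and Cbx7, had unadjusted p from 0.234 to 0.834 in limma.

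**Figure D3:**
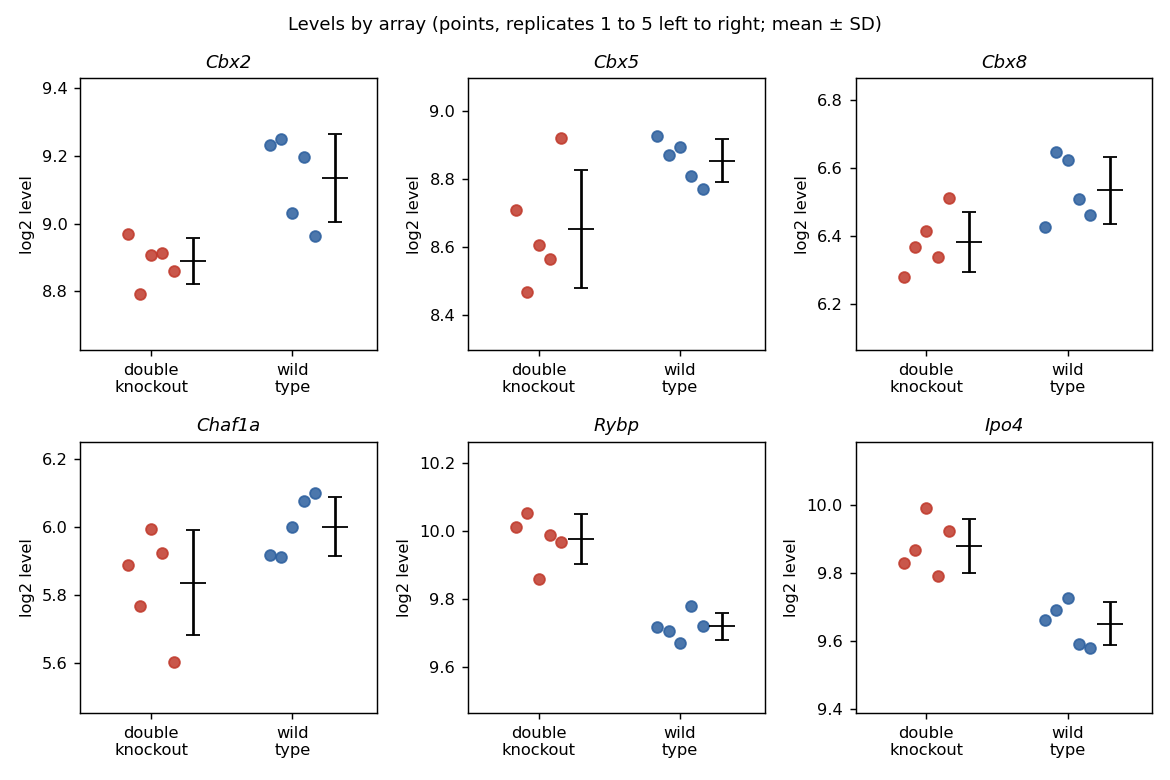
Log2 level in each array of Cbx2, Cbx5, Cbx8 and Chaf1a, the 4 listed genes with an unadjusted p under 0.05, and of Rybp and Ipo4, other genes of the same complexes or roles. The mean and SD of 5 arrays stand beside each group. Double knockout arrays stand on the left of each panel, and every panel spans 0.8 on its y axis. The groups overlap for the 4 listed genes and do not for Rybp and Ipo4.

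Promoter sequences, 250 bases before to 50 after a transcript start, are shown for 3 of these 4 genes as RefSeq gives them in GRCm38.p6. CpG-rich starts are the kind of sequence that Polycomb complexes are known to act on. Cbx2 had no entry among the promoter sequences used, so it could be neither printed nor counted. Capitals mark every CG dinucleotide, the letters C and G in that order, which read the same on both strands. Cbx5 lies at chr15:103239803-103240102 on the minus strand, Cbx8 at chr11:119040864-119041163 on the minus strand and Chaf1a at chr17:56040166-56040465 on the plus strand.
Cbx5: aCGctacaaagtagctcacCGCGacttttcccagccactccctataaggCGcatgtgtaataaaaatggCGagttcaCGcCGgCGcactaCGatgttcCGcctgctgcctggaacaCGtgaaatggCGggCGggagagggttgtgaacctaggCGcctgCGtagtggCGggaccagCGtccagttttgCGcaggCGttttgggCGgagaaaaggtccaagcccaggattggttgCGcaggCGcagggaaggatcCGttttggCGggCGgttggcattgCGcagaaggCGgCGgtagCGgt
Cbx8: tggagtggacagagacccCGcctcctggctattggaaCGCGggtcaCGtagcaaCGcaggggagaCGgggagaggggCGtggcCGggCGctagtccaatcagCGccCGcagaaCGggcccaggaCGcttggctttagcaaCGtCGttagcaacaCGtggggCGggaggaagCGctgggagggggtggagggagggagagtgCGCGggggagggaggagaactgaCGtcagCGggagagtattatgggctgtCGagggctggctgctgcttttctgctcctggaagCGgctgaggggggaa
Chaf1a: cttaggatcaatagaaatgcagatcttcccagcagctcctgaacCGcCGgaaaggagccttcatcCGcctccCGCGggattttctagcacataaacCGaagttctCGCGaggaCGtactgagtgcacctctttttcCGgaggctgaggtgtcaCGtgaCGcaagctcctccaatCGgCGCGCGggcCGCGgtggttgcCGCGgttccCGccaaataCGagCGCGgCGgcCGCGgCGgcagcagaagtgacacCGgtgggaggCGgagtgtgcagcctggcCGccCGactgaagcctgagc
The Cbx5 stretch holds 29 CG dinucleotides, the Cbx8 stretch 24 and the Chaf1a stretch 32. At least as many were present at 12.8%, 20% and 9.27% of the starts of all 27025 genes in the table, and at 16.7%, 26.6% and 12% of those of 17492 protein-coding genes. A CG is present at 94.2% of all these starts, so its presence alone sets no gene apart.

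CpG-rich starts were common to the list as a whole. Of the 41 genes, 36 had a promoter in the table, and the most upstream start was used. Cbx2, Hdac1, Hdac3, Kdm6b and Lmnb1 had none. The 36 promoters held a median of 30 CG dinucleotides, against 7 over all genes and 13 over protein-coding genes, and 33 of the 36 reached the protein-coding median. Dnmt3a had 46, the highest, and Dnmt1 had 2, the lowest, while another listed start of Dnmt1 had 33. The Suz12 and Ring1 starts, with 41 and 37, were richer than those of Cbx5, Cbx8 and Chaf1a, and their levels differed by 0.043 and -0.062. These counts describe the sequence and say nothing of methylation in these livers.

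The 4 listed genes that place the methyl mark read by HP1, or help to place it, differed by less than 0.05. Setdb1 differed by 0.038, Ehmt1 by 0.017 and Ehmt2 by 0.046, and Trim28, the corepressor that brings SETDB1 to DNA, by -0.038. Ehmt2, with the lowest p, was 8.97, 8.89, 9.02, 8.93 and 8.84 in double knockout livers, against 8.84, 8.81, 8.81, 8.97 and 8.99 in wild-type livers. Each group held arrays at both ends of this range (limma adjusted p = 0.749). Its difference was 0.11 without the 4 arrays of pancreas signal described below. The 4 intervals together spanned 0.913-fold to 1.12-fold. Of 13 other genes grouped broadly under this role, with demethylases, partner proteins, Kmt5b, Kmt5c and Smchd1 included, 8 had higher means. Setdb2, a methyltransferase of the same lysine named here after its values were seen, differed by 0.21, with a wide interval of 0.912-fold to 1.46-fold (limma adjusted p = 0.591).

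The chaperones of the replacement histone H3.3 all had slightly lower means. Atrx, the X-linked remodeller, was 8.70, 8.62, 8.60, 8.59 and 8.55 in double knockout livers, against 8.77, 8.63, 8.73, 8.67 and 8.68 in wild-type livers, a difference of -0.084 (SE 0.04, limma adjusted p = 0.391). Double knockout replicate 1 lay within the wild-type range, and the other 4 lay below every wild-type array. Daxx, the partner of ATRX, differed by -0.045, and Hira, which deposits H3.3 in active genes, by -0.053. No interval of these 3 listed genes reached below 0.872-fold. The 3 other genes in this role also had lower means (51.5% of all probe sets did), with a median difference of -0.058 (lowest limma adjusted p = 0.343).

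Chaperones that work behind the replication fork gave mixed values. Chaf1a, the large subunit of chromatin assembly factor 1, was 5.89, 5.77, 6.0, 5.92 and 5.60 in double knockout livers, against 5.92, 5.91, 6.0, 6.08 and 6.10 in wild-type livers. All 10 values lay below the background guide, and the difference of -0.17 (SE 0.07, limma adjusted p = 0.308) depended in size on double knockout replicate 5, without which it was -0.11. Its partner Chaf1b, also below the guide, differed by -0.063. Asf1a and Asf1b, which hand H3 and H4 to the assembly factors, differed by 0.085 and 0.015. Markers of cycling cells averaged 6.69 ± 0.05 in double knockout and 6.69 ± 0.04 in wild-type arrays (SD, n = 5 each), with 10 of 20 markers higher and 9 of 20 below the guide.

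Of the chaperones of H2A and H2B, Nap1l1 had the higher mean and Supt16, a subunit of the FACT complex, the lower. Nap1l1 was 9.66, 9.63, 9.53, 9.44 and 9.62 in double knockout livers, against 9.47, 9.41, 9.41, 9.56 and 9.48 in wild-type livers, a difference of 0.11 (SE 0.05, unadjusted p of 0.0502, limma adjusted p = 0.331). Here 3 double knockout arrays lay above all wild-type arrays. Supt16 differed by -0.055. Of 9 other genes grouped broadly under this role, 7 had higher means and 2 lower (22.2%, against 51.5% of all probe sets). Their median difference was 0.057 (lowest limma adjusted p = 0.143).

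Ep400 had the widest interval of the list. This ATPase of the TIP60 complex exchanges H2A.Z. Its levels were 11.03, 11.16, 11.16, 11.13 and 10.93 in double knockout livers, against 10.91, 10.50, 10.83, 10.93 and 11.18 in wild-type livers. Wild-type arrays spanned 10.50 to 11.18, a range that contains all 5 double knockout arrays, and the difference was 0.21 (SE 0.10, limma adjusted p = 0.359). It was 0.12 without wild-type replicate 2, the lowest array, and 0.33 without the 4 arrays of pancreas signal described below. The other Ep400 probe set differed by 0.050 (SE 0.04). Srcap, the ATPase of the other H2A.Z-depositing complex, differed by 0.0038, with -0.072 on a probe set shared with a second symbol. Ino80 differed by -0.042, with 0.073 on a probe set shared with the ribosomal protein gene Rpl35a.

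The 4 listed DNA methylation genes had lower means, while 5 of 9 other genes in this role had higher means. Dnmt3a, a de novo methyltransferase, was 7.95, 7.78, 7.82, 7.63 and 7.66 in double knockout livers, against 7.79, 7.78, 7.94, 8.03 and 7.88 in wild-type livers. Double knockout replicates 4 and 5 were low and the other 3 lay among the wild-type arrays, for a difference of -0.12 (SE 0.07, limma adjusted p = 0.483). Dnmt3b, the second de novo enzyme, differed by -0.081, with a wide interval of 0.826-fold to 1.08-fold. Dnmt1, the maintenance enzyme, and Uhrf1, which directs it to newly copied DNA, differed by -0.0097 and -0.032.

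Class I deacetylases were not uniform either. Hdac1 was 8.82, 9.14, 9.07, 9.02 and 8.86 in double knockout livers, against 9.28, 9.32, 9.20, 9.09 and 8.92 in wild-type livers. Wild-type replicates 1 to 3 lay above every double knockout array, while wild-type replicate 5 was lower than 3 of them, and the difference was -0.18 (SE 0.08, limma adjusted p = 0.352). Without the 4 arrays of pancreas signal described below the difference was -0.28 (limma adjusted p = 0.185). The 10 fits that left out 1 array gave -0.24 to -0.13 (limma adjusted p from 0.169 to 0.554). All 14 other alternatives gave -0.28 to -0.10 (limma adjusted p from 0.185 to 0.658). Hdac2, the close paralogue of Hdac1, differed by 0.055, and Hdac3, the catalytic subunit of the NCOR complexes, by -0.097.

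The B-type lamins, filament proteins of the nuclear envelope that contact silent chromatin, differed by -0.0030 for Lmnb1, below the background guide, and by 0.068 for Lmnb2. Lmnb2 was 6.68, 6.54, 6.67, 6.65 and 6.97 in double knockout livers, against 6.44, 6.65, 6.77, 6.66 and 6.65 in wild-type livers. Its mean of 6.67 lay only just above the guide of 6.54, and wild-type replicate 1 lay below that guide. Double knockout replicate 5 was the highest of all arrays, and without it the difference was 0.00051 (limma adjusted p = 0.999), while it was 0.14 without the 4 arrays of pancreas signal (limma adjusted p = 0.646).

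Across arrays the genes did not move as a block. For each array the median deviation of the 41 genes from their own means was computed. It lay between -0.046 and 0.0070 in double knockout arrays and between -0.014 and 0.032 in wild-type arrays. Double knockout replicate 5 had the lowest median and held the lowest value of 10 of the 41 genes, more than any other array. Wild-type replicate 4 had the highest median, and held the highest value of 5 genes, as did 3 other arrays, while double knockout replicate 3 held that of 6.

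**Figure D4:**
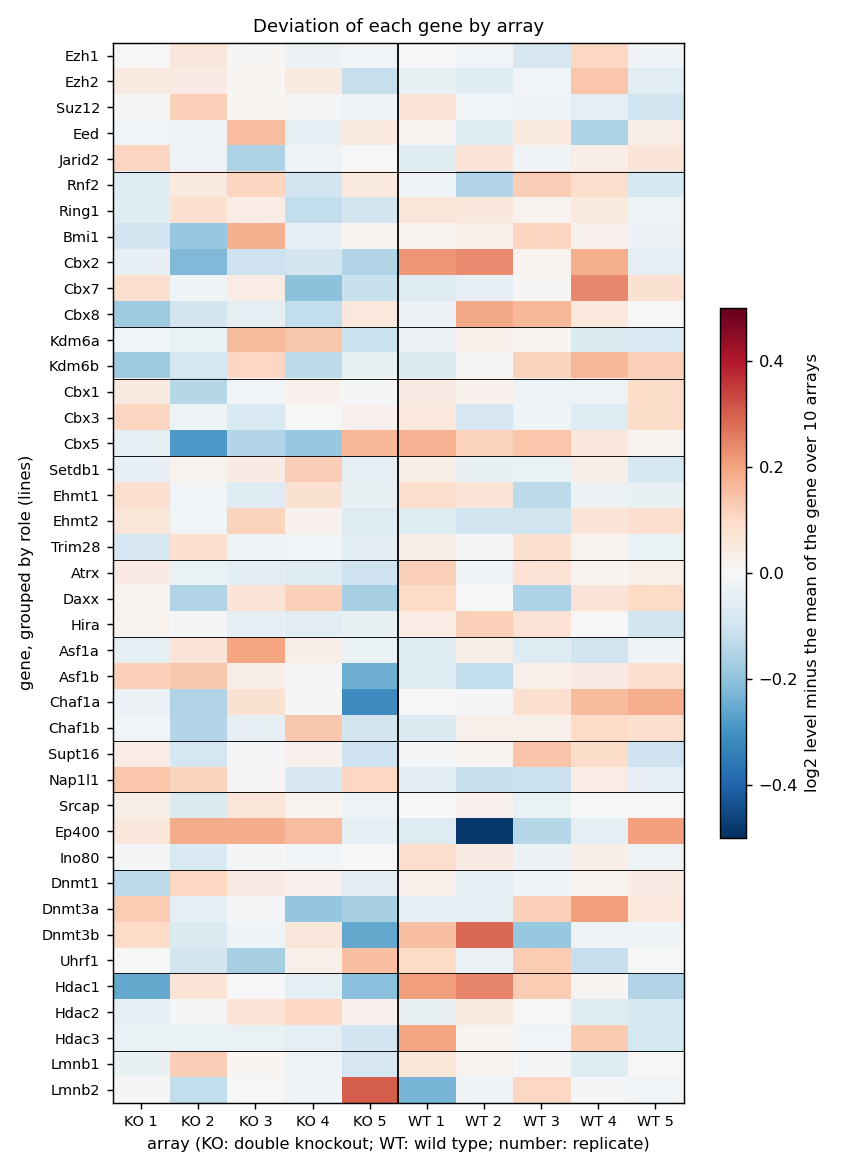
Deviation of the log2 level of each of the 41 genes from its mean over the 10 arrays, with double knockout arrays (KO) left of the line and wild-type arrays (WT) right of it, and genes grouped by role. Most cells are pale; Cbx2, Ino80 and Hdac3 are below their means in all 5 double knockout arrays, and single arrays stand out for Ep400 (wild-type replicate 2), Lmnb2 and Chaf1a (double knockout replicate 5).

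Other genes of the same complexes or roles were then read from the same fit. The list was broad and included enzymes that act against a listed role, such as Tet1, Tet2, Tet3 and Kdm4a. Of 103 such genes, 93 had a probe set of their own, 45 had higher means and 48 lower, and the median difference was -0.0018. In limma, 1 (1.08%) was called, Rybp, against 0.884% of all probe sets, and 10 had an unadjusted p under 0.05, which is 10.8%, against 15.1%. Of these 10, 5 were higher (5.38%, against 7.52% of all probe sets) and 5 were lower (5.38%, against 7.6%). The groups did not overlap for 2 of the 93 (2.15%), Rybp and Ipo4, against 3.9% of all probe sets. The intervals of all 93 genes lay within 1.5-fold.

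Rybp encodes a subunit of variant PRC1 complexes, which lack a chromobox protein. It was 10.01, 10.06, 9.86, 9.99 and 9.97 in double knockout livers, against 9.72, 9.71, 9.67, 9.78 and 9.72 in wild-type livers. Every double knockout array lay above every wild-type array. Rybp rose by 0.26 (SE 0.04, 95% interval 0.16 to 0.35, limma adjusted p = 0.0243). The call was kept in 5 of the 10 fits that left out 1 array, with adjusted p up to 0.0728 without wild-type replicate 2, and differences from 0.24 to 0.29. The fits without double knockout replicate 2, 4 or 5 or wild-type replicate 3 also lost it, as did the fit without the 4 arrays of pancreas signal (0.24, limma adjusted p = 0.168) and the test of every row of the table (limma adjusted p = 0.0584).

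Pcgf5, a Polycomb ring finger partner in variant PRC1, was 7.88, 7.94, 7.83, 7.69 and 7.77 in double knockout livers, against 8.08, 7.93, 8.02, 8.25 and 7.91 in wild-type livers (difference -0.21, SE 0.07, limma adjusted p = 0.171). The groups overlapped through double knockout replicate 2. Among chaperones, Ipo4, an importin that carries H3 and H4 to the nucleus, was 9.83, 9.87, 9.99, 9.79 and 9.92 in double knockout livers, against 9.66, 9.69, 9.73, 9.59 and 9.58 in wild-type livers. These groups did not overlap, and the difference of 0.23 (SE 0.05) was just outside the threshold (limma adjusted p = 0.0557). A second Ipo4 probe set, at a mean level of 6.92, differed by 0.035.

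Supt6, a histone chaperone of transcribed genes, was 9.55, 9.44, 9.65, 9.66 and 9.55 in double knockout livers, against 9.33, 9.40, 9.45, 9.31 and 9.47 in wild-type livers (difference 0.18, SE 0.05, limma adjusted p = 0.143). Npm1, nucleophosmin, was 10.63, 10.73, 10.64, 10.59 and 10.76 in double knockout livers, against 10.39, 10.48, 10.66, 10.43 and 10.48 in wild-type livers (difference 0.18, SE 0.06, limma adjusted p = 0.151). In each case a single array made the overlap, double knockout replicate 2 for Supt6 and wild-type replicate 3 for Npm1. The lower probe set of Npm1 differed by 0.11.

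**Figure D5:**
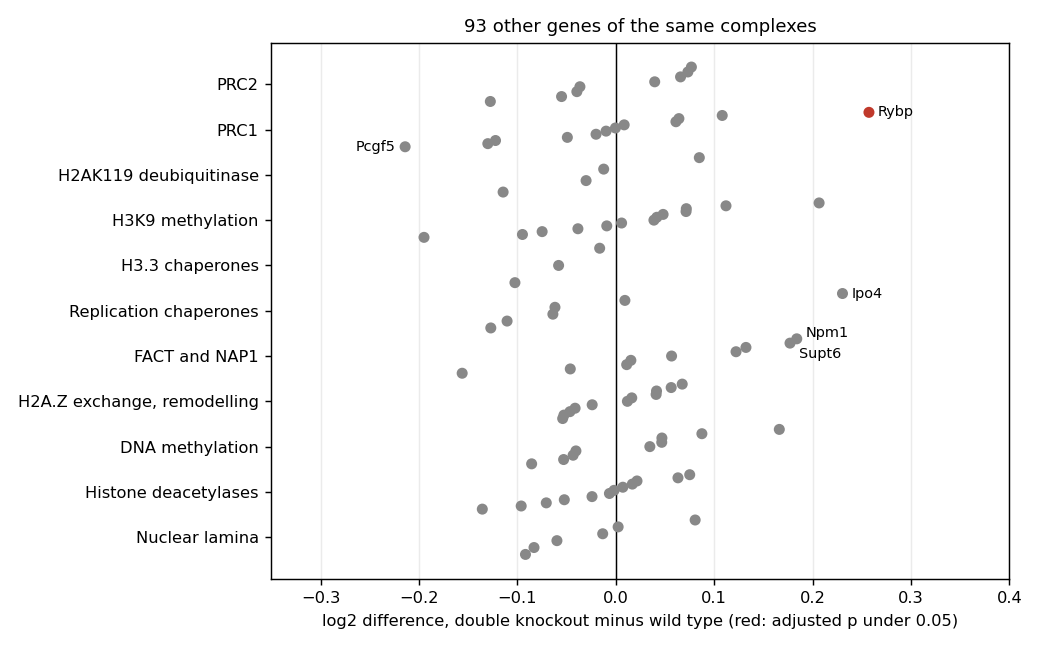
Log2 difference (x axis, double knockout minus wild type) of 93 other genes of the same complexes or roles, grouped by role, each point a gene. The point in red, Rybp, was called at an adjusted p under 0.05, and Ipo4, Npm1, Supt6 and Pcgf5 are the next by p.

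Markers of other cells differed between the arrays on which these values rest. All 15 macrophage markers had higher means in double knockout livers, 2 were called (0.884% of all probe sets were), 10 had an unadjusted p under 0.05 (15.1% of all probe sets did), and 0 lay below the background guide. Their summed linear level was 10386 to 12888 in double knockout and 9004 to 11247 in wild-type arrays. Pancreatic acinar markers averaged 9.02 and 9.29 in double knockout replicates 1 and 2 and 10.37 and 11.59 in wild-type replicates 4 and 5, against 6.31 to 7.02 in the other 6 arrays. Of 10 such markers 1 had a higher mean in double knockout livers and 1 lay below the guide. Their summed linear level was 979 to 11263 in double knockout and 912 to 42542 in wild-type arrays. Without these 4 arrays, Cbx2 had a difference of -0.28 (limma adjusted p = 0.19), Cbx5 -0.20, Cbx8 -0.15, Chaf1a -0.10 and Kdm6b -0.037. Some listed genes with values per array had differences over 1.5 times as large in this fit as with all arrays. These were Ep400, at 0.33, Hdac1, at -0.28, Lmnb2, at 0.14, Atrx, at -0.13, and Ehmt2, at 0.11 (limma adjusted p from 0.185 to 0.646). Suz12 had -0.020. Genes without values per array, such as Hira, are left out here, and their differences in this fit are not given. Among the other marker lists, means were higher in double knockout livers for 1 of 7 B and plasma cell genes, 5 of 9 T and NK cell genes, 3 of 9 neutrophil genes, 2 of 3 erythroid genes, 6 of 8 endothelial genes, 3 of 8 stellate cell genes, 4 of 5 cholangiocyte genes and 2 of 8 hepatocyte genes. In limma 0 of these 57 genes were called, and 8 had an unadjusted p under 0.05. The part of macrophage RNA in these values was not tested. In whole liver, fewer cells of a type and less RNA per cell cannot be told apart.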

How the data were processed

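Gene expression was measured on 10 Affymetrix arrays, 5 of double knockout and 5 of wild-type liver, from total RNA labelled with the Ambion WT Expression Kit, per the labels' protocols. The deposited values are log2 expression levels, 1 per probe set. The submitters' processing notes name Affymetrix Expression Console. Summarisation and normalization methods are stated in none of the sources used here, and the array quartiles differed by at most 0.046. Scanner files and hybridisation dates were not analysed here.

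The platform annotation given with the series gave 1 symbol to 23521 of 41345 rows, several to 1814 and none to 16010. The 25335 rows with a symbol were fitted in limma 3.58.1 (R 4.3.3; lmFit and eBayes, two-sided, group as the only term, 8 residual and 3.96 prior degrees of freedom), with Benjamini-Hochberg adjustment over all of them and no filter. The code of the fit was tested on simulated data with independent noise for each probe set. Such data lack variation shared between genes, such as the pancreas signal, so the test does not bear on the calls made here.

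Members and gene lists were chosen with earlier results of these data known. All members were named by their difference. Values per array were given for members with an unadjusted p under 0.05 and for the member of lowest p in each role. Among the other genes of the same complexes or roles, they were given for the called gene and the next 4 by p. Alternatives were the eBayes options, array weights, renormalization, filters, other rows, thresholds, the replicate number as a block and leaving out arrays. Deviations of same-numbered arrays correlated by -0.477 to 0.131, which gave no sign of pairing by number. Pancreas signal was high in double knockout replicates 1 and 2 and in wild-type replicates 4 and 5. It sets same-numbered arrays apart, so these correlations cannot exclude shared handling by number.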

Additional observations from a re-analysis of the deposited data

Results flagged for a closer look

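In 82 groups of 5 arrays, 1 for each of the 41 genes in each genotype, 5 (6.1%) held an array that stood apart from the other 4 by Dixon's criterion, where chance gives about 1 in 20. Ezh2 was 7.81 in double knockout replicate 5, while the other 4 arrays lay between 7.94 and 7.97. It was 8.07 in wild-type replicate 4, against 7.87 to 7.91. Suz12 was 9.13 in double knockout replicate 2, against 9.00 to 9.02. Ino80 was 9.09 in double knockout replicate 2, against 9.16 to 9.17. Hdac3 was 11.07 in double knockout replicate 5, against 11.11 to 11.13.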

How the results depend on the processing

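Over 24 alternatives, the count of listed genes called was 0 in all but 2: it was 1, Cbx2, at an adjusted p under 0.1 and without wild-type replicate 5, so leaving out 1 array gave 0 to 1. The median difference of the listed genes stayed between -0.039 and -0.017. The count over all probe sets, 224, became 377 with the filter on low levels, 75 with every row tested, 76 with the replicate block, 585 and 45 at adjusted p under 0.1 and 0.01, 68 without the arrays of pancreas signal, 613 without both arrays numbered 1, and 64 to 253 when 1 array was left out. Among the 93 other genes of the same complexes or roles, 2 were called with the intensity trend and 2 at adjusted p under 0.1. Of all 25335 probe sets, 291 and 585 were called in these fits. The filter left 14078 probe sets, of which 377 were called, with 36 listed genes and 87 of the other genes. Of these 87, 2 were called. Called genes among the others numbered 0 with every row tested, with the replicate block and at adjusted p under 0.01. They also numbered 0 without the arrays of pancreas signal, and 0 to 1 when 1 array was left out. Fewer or more rows tested account by construction for part of these shifts in the filter and in the test of every row; for the others the cause was not tested. Of the 13 listed genes with values per array, Suz12 alone changed sign, to -0.020 without the arrays of pancreas signal. With the replicate block, Cbx2 had -0.24 (limma adjusted p = 0.162) and Rybp 0.26 (limma adjusted p = 0.0797). Macroh2a1 was called in all 24 alternatives. Same-numbered arrays did not correlate best with each other for any number. The number of arrays limits the precision, and genes below the background guide may hide changes.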
